A study of Mus musculus with 18 samples.

Results

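The clustered protocadherin genes of the mouse lie in a row on chromosome 18, and their DNA methylation was followed here across mammary epithelial cell types and pregnancy. The genes were represented by every measured CpG in the 925 kb from chr18:37080001-38005001 of genome build mm9, a window that holds the alpha, beta and gamma clusters in that order. Of 711980 CpGs that were covered by 5 or more reads in each of the 18 libraries, 524 lay in the window. Of these, 441 fell into 75 of the 77064 tiles of 1000 bp that held at least 3 such CpGs, the unit in which groups were tested; the other CpGs entered only means over stretches. The window was divided into an alpha stretch (chr18:37080001-37380000, 128 CpGs and 16 tiles), a beta stretch (chr18:37380001-37730000, 108 CpGs and 15 tiles) and a gamma stretch (chr18:37730001-38005001, 288 CpGs and 44 tiles). A RefSeq table of a later build lists 14 alpha, 22 beta and 22 gamma genes in this order: Pcdha1 to Pcdha12, then Pcdhac1 and Pcdhac2; Pcdhb1 to Pcdhb22; and the interleaved Pcdhga and Pcdhgb genes, then Pcdhgc3, Pcdhgc4 and Pcdhgc5. No tile was assigned to a single gene, because no mm9 annotation was used here, so the text names positions and not genes. The window also spans the space between clusters, where the gene lists used here put Taf7 and Slc25a2, which are not protocadherins. Tiles of a stretch may therefore belong to such genes, and tiles near the ends of the window may lie outside the clusters.

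The libraries came from C57BL/6 female mice and were made by reduced representation bisulfite sequencing, in which MspI cuts the DNA at CCGG, bisulfite converts unmethylated cytosines, and the share of reads that kept a cytosine at a CpG gives its methylation level. Epithelial cells labelled stem, luminal progenitor and mature luminal were purified from mammary glands at 6 stages. Virgin glands were taken at week 3 or week 9, pregnant glands on day 10, 16 or 19, and the remaining ones from retired breeders. Every cell type therefore has 2 libraries from virgin, 3 from pregnant and 1 from retired animals, with stages of one state used as its replicates. The labels name no animal for a library and no age for the retired breeders, so p-values measure the spread between these libraries, which for pregnancy includes the difference between stages. The cell type labels could be checked only in part: of the stem or basal, blood and endothelial markers no promoter had a usable level. The promoter of the luminal marker Gata3 was at most 0.578% methylated and that of the stromal marker Vim at most 1.83% in the 18 libraries, stem cells included, so neither separated the cell types.

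Protocadherins are adhesion molecules of the cadherin family, best known for giving each neuron its own surface identity. In the alpha and gamma clusters many variable first exons, each with its own promoter, are spliced to a shared set of constant exons, while each beta gene is a single exon. In neurons most of these promoters are chosen at random in each cell; methylation of the promoter and exon marks the silent ones, and the insulator protein CTCF with the cohesin ring joins active ones to distant enhancers. In epithelial tumours, the breast included, the clusters are known as regions that gain methylation over a long distance. The last variable exons of the alpha and gamma clusters, called C-type, are less subject to this random choice.

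Depth at the 524 CpGs was lowest for retired mature cells, with 8726 reads, and highest for week 9 progenitors, with 52846, with a median of 15 to 96 reads per CpG. The retired progenitor and retired mature libraries were the shallowest, both with a median of 15 reads. Pregnant stem libraries were shallower than both virgin stem ones, with medians of 43, 26 and 29 reads against 50 and 65. The same held in mature cells, with 56, 32 and 43 against 89 and 91, while progenitor depths overlapped. The part of depth in the pregnancy differences below was not tested. In all, 920 CpGs of the window were listed in at least 1 library, and each library alone measured between 701 and 913 CpGs. Reads may include copies of one molecule, and intervals given below cover counting error only. The genes of a cluster are similar in sequence, and how reads that match several copies were treated is not given in the sources used here.

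A larger share of CpGs stood at middle levels in the clusters than over the measured genome. Of the 524 CpGs, 117 (22.3%) had a mean level under 20%, 232 (44.3%) lay between 20 and 80%, and 175 (33.4%) were above 80%. Over all 711980 CpGs the corresponding shares were 39.7%, 16.7% and 43.7%. The same was seen in tiles: 47 of 75 (62.7%) had a mean level between 20 and 80%, against 22.2% of all tiles, 21.8% of autosomal tiles and 22% of those on chromosome 18. Neighbouring CpGs are not independent, so these shares are given as a description. In the 47 tiles, 192 of 249 CpGs (77.1%) were themselves at a middle level, compared with 68.2% of CpGs in all such tiles. The files hold reads per CpG and not per molecule, and partial methylation in every cell cannot be told apart from full methylation in some cells.

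**Figure D1:**
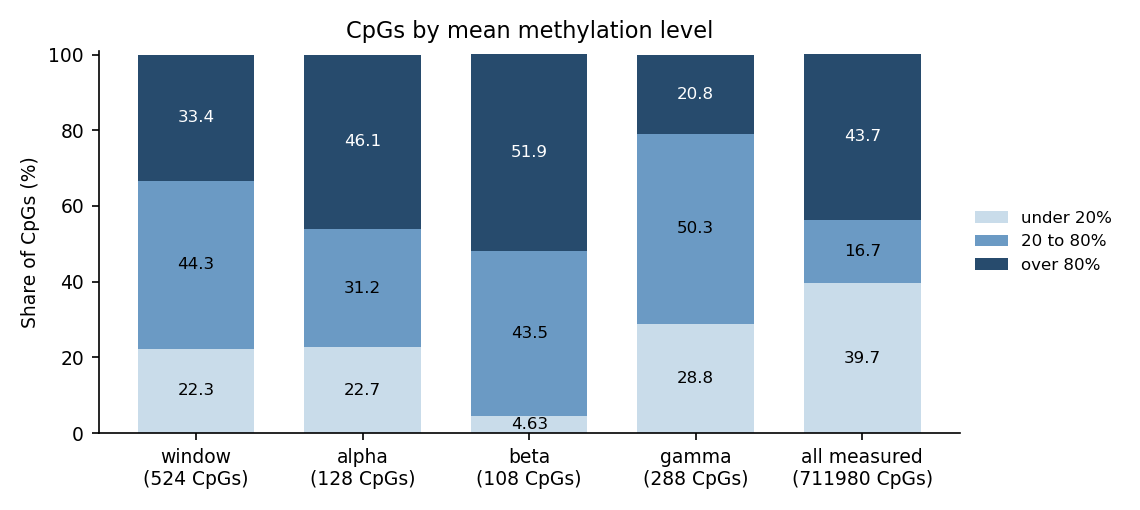
Share of CpGs (%, vertical axis) whose mean level over the 18 libraries is under 20%, 20 to 80% or over 80%, for the window, its 3 stretches and all measured CpGs. The middle class holds 44.3% of the window's CpGs and 50.3% of those in the gamma stretch, against 16.7% of all CpGs.

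The 3 stretches had different profiles. The beta stretch was the most methylated: 56 of its 108 CpGs (51.9%) were above 80%, 5 (4.63%) were under 20%, and none of its 15 tiles had a mean under 20%. The alpha stretch had 59 of 128 CpGs (46.1%) above 80% and 29 (22.7%) under 20%. The gamma stretch was the least methylated, with 60 of 288 CpGs (20.8%) above 80%, 145 (50.3%) in the middle and 83 (28.8%) under 20%. Among the densest tiles, those with at least 10 CpGs, 5 of 10 in the window were under 20%, 3 were in the middle and 2 were above 80%, while 69.6%, 4.82% and 25.6% of the 15422 such tiles of the genome were in these classes. With 10 tiles these shares are coarse.

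Low methylation was concentrated toward the far end of the alpha stretch and in separate blocks of the gamma stretch. In alpha, the tile chr18:37249001-37250000 (10 CpGs) had a mean level of 6.29% and ranged from 2.03 to 10.6% over the 18 libraries. Further along, at chr18:37303001-37305000, a pair of tiles with 17 CpGs had means of 0.475% and 12.1%. In gamma, the tile with the most CpGs, chr18:37803001-37804000 with 17, was close to 0 in every library, with a mean of 0.235% and a highest value of 0.709% in the week 3 mature library. Whether this tile lies at a gamma protocadherin or at a gene between the clusters was not determined. Near the far end of gamma, 4 tiles between chr18:37965001-37976000 with 30 CpGs had means of 0.154 to 4.08%, and read together they ranged from 0.16 to 3.4% over libraries. These blocks were low in stem, progenitor and mature cells and at all 6 stages.

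Some tiles were highly methylated in every library. The tile with the most CpGs in alpha, chr18:37197001-37198000 with 19, was methylated at 93.6% ± 1.43 (SD, n = 18 libraries), between 90.1% in the day 16 mature and 96.9% in the retired progenitor library. In gamma, chr18:37790001-37791000 with 11 CpGs was methylated at 91.2% ± 1.46 (SD, n = 18) and precedes the unmethylated tile at 37803001. In beta, where no tile held 10 CpGs, 3 tiles between chr18:37524001-37547000 with 13 CpGs had means of 89.7 to 96.4%, and the first of them ranged from 83.3 to 100% over libraries. Most of the gamma stretch from 37821001 to 37927000 alternated between low, middle and high tiles over distances of a few kilobases.

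**Figure D2:**
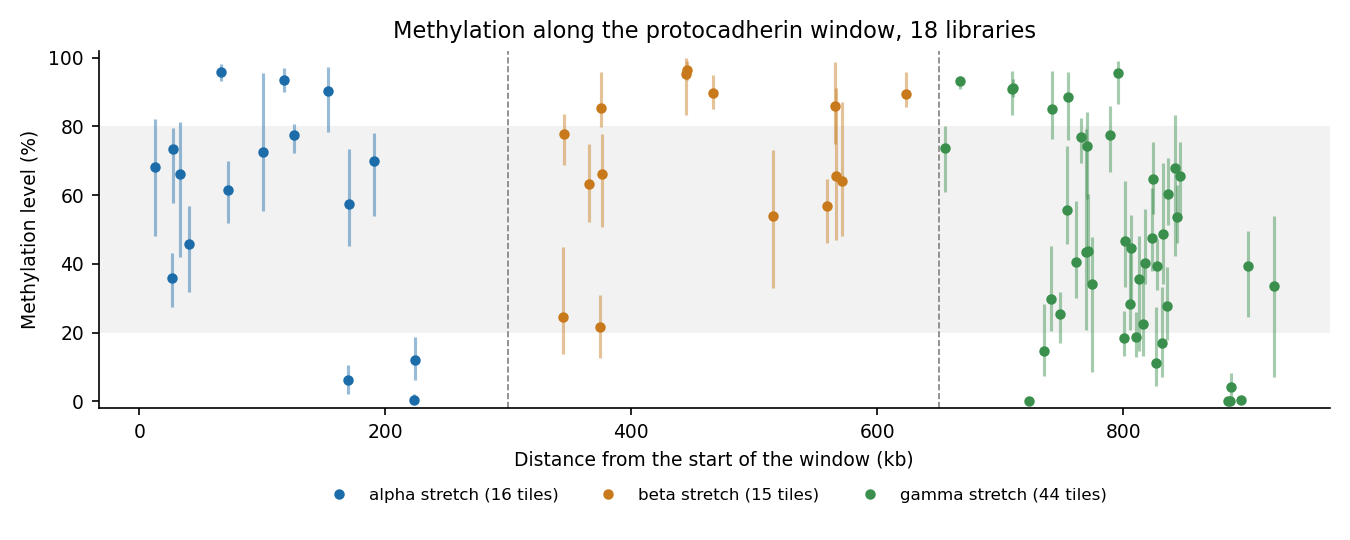
Methylation level (%, vertical axis) of the 75 tiles against distance from the start of the window (kb, horizontal axis), with the mean over 18 libraries as a point and the lowest to highest library as a line; dashed lines separate the alpha, beta and gamma stretches and the shaded band covers 20 to 80%. Of the 75 tiles, 47 have means inside the band, the unmethylated tiles sit in alpha and gamma, and no beta tile lies below 20%.

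Neighbouring tiles of the window often stood at unlike levels. Of 23 pairs of tiles that touch, 10 (43.5%) differed by at least 30 points, compared with 1451 of 14299 touching pairs (10.1%) over the genome. The median difference between touching tiles, without sign, was 28.3 points in the window and 1.58 points over all pairs. In 9 of the 10 pairs the tile with the higher coordinate was the more methylated one, whereas over the genome the second tile was the higher in 733 of 1451 (50.5%). Both groups of pairs include tiles that belong to more than one pair. They were not matched for level or number of CpGs: 62.7% of window tiles lay between 20 and 80%, against 22.2% of all tiles. Whether the steps exceed what such levels give was not tested.

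The steps had the same direction in every library, but not the same size. The largest was in beta, where chr18:37454001-37455000 was methylated at 21.7% ± 5.88 and the next tile at 85.5% ± 4.51 (SD, n = 18), and no library of the first (12.6 to 30.9%) reached the lowest of the second (79.9%). In gamma, chr18:37821001-37822000 at 29.7% ± 6.73 was followed by a tile at 85% ± 4.88. In alpha, chr18:37249001-37250000 at 6.29% ± 2.41 was followed by one at 57.4% ± 6.5. The exception in direction was in gamma, where chr18:37850001-37851000 at 74.3% ± 5.34 was followed by a tile at 43.7% ± 6.74. Library ranges overlapped in this pair (59 to 84.2% and 34.4 to 60.2%). They also overlapped in the pair just before it (20.7 to 79.2% and 59 to 84.2%). All 10 steps had the same direction in 18 of 18 libraries, in all 3 cell types and in virgin, pregnant and retired mice. The pairs were chosen by their mean difference over these same libraries, which makes a common direction likely in advance. The same count was not made for the steps over the genome.

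**Figure D3:**
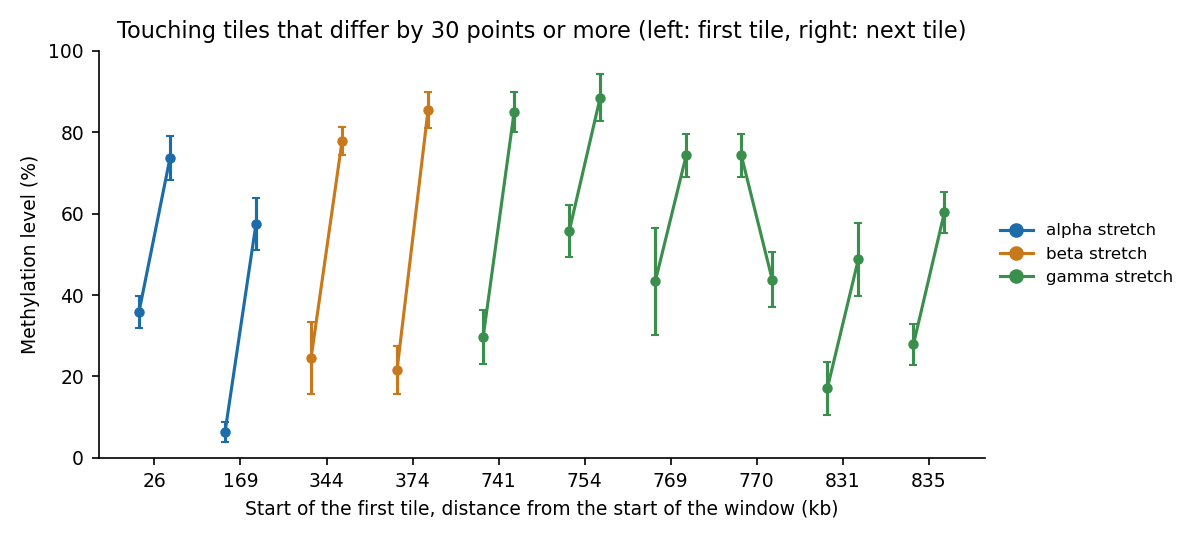
Mean methylation level (%, vertical axis) of the 10 pairs of touching tiles that differ by 30 points or more, ordered by distance of the first tile from the start of the window (kb); bars are SD over 18 libraries, colours are the stretches. In 9 pairs the line rises from the first to the second tile, and in 1 gamma pair it falls from 74.3% to 43.7%.

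The profile of the window was much alike in all libraries. Across its 75 tiles the Pearson correlation between libraries ran from 0.902 to 0.988 over 153 pairs of libraries, with a median of 0.961, and the lowest was between day 10 stem and retired progenitor. Over all 77064 tiles the median was 0.979. These correlations are across tiles, which are not independent, and depend on the depth of both libraries. For tiles of middle level the SD over libraries had a median of 6.38 points in the 47 tiles of the window and 8.49 points in 17079 tiles of the genome, with a median of 218 and 159 reads per tile. The spread beyond counting error, as a dispersion that is 1 when reads alone set it, had medians of 3.04 and 4.23. Both medians were lower in the window, where tiles also held more reads. Tiles under 20% went the other way, with a median SD of 2.41 points in 13 window tiles and 0.562 in 23913 of the genome and dispersions of 2.01 and 1.82. Levels were not matched within this class, where window tile means ran from 0.154 to 18.7%. For tiles over 80% the median SD was 2.8 points in the window and 3.2 over the genome.

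The mean level of the window differed little between libraries. It ran from 52.5% in retired stem to 57.4% in retired progenitor, with a median of 53.9%, while the mean over all measured CpGs ran from 49.2 to 51.2%. The mean of the alpha stretch lay between 58.3% and 64.3%, that of beta between 71.6% and 76.8%, and that of gamma between 42.6% and 47.5%. The 3 ranges did not overlap, so that beta was above alpha and alpha above gamma in each of the 18 libraries. The retired progenitor library was the highest in the window, in alpha and in gamma. It was also among the shallowest at 15 reads per CpG, and the part of depth in its level was not tested.

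For pregnancy, the question named by the series, stem cells had window means of 52.8% and 53.9% in the virgin libraries and of 54.4%, 53.3% and 53.2% in the day 10, day 16 and day 19 libraries. Virgin and pregnant libraries overlapped, and their means differed by 0.27 points with a pooled SD of 0.704. At the same time the mean over all CpGs fell by 1.06 points, from 50.7% ± 0.372 (SD, n = 2) to 49.6% ± 0.432 (n = 3), without overlap. The corresponding difference in the window was 0.274 points for progenitors (pooled SD 1.14) and -0.216 points for mature cells (pooled SD 0.763), again with overlapping libraries. In single stretches the difference lay between -1.57 points (beta, mature) and 1.41 points (beta, progenitor), and groups overlapped in all 9 combinations of stretch and cell type. Several of these differences turned sign or moved by more than their size with 1 library left out: from -0.282 to 0.823 points for the window in stem cells, from -3.28 to 0.15 for beta in mature cells and from -0.0214 to 2.51 for beta in progenitors. With reads pooled over CpGs the alpha difference in stem cells was -2.97 points in place of -0.257. No p is given for a mean over many CpGs of one region.

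Between cell types of the same stage, the window mean of stem cells was lower than that of progenitors by 1.23 points on average, with an SD of 1.98 over 6 stages, and stem cells were the higher in 2 of 6. Stem minus mature was -0.867 points ± 1.09, and progenitor minus mature was 0.36 points ± 1.56. In alpha alone stem cells were below progenitors in 6 of 6 stages, by 1.89 points ± 2.2, and the largest gap was at the retired stage, where the levels were 58.3% and 64.3%. Stem cells were also below mature cells in alpha in 5 of 6 stages, by 1.41 points ± 1.2, which is larger than its spread. The other differences of the window and its stretches were smaller than their SD over stages. Over all measured CpGs stem cells were lower as well. Stem minus progenitor was -0.487 points ± 0.645 there, with stem cells the higher in 2 of 6 stages. Stem minus mature was -0.523 points ± 0.824, with stem cells the higher in 1 of 6. The direction in alpha was therefore not particular to that stretch.

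**Figure D4:**
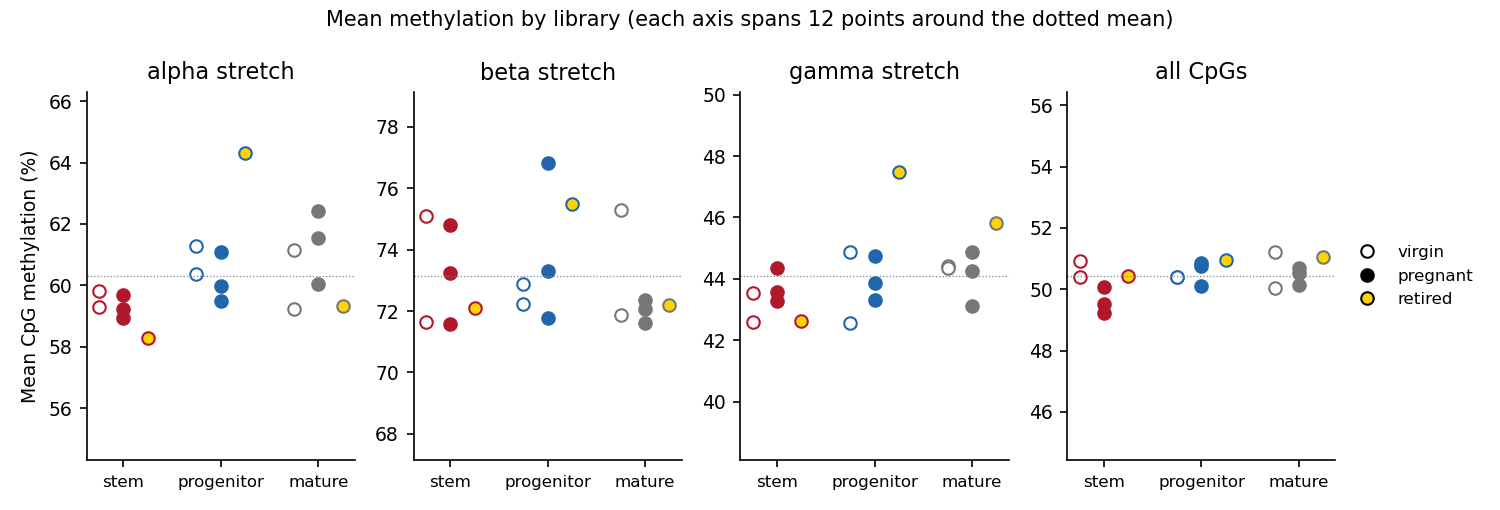
Mean CpG methylation (%, vertical axes, each spanning 12 points around the dotted mean of 18 libraries) of the alpha, beta and gamma stretches and of all CpGs, 1 point per library, by cell type and state. Virgin and pregnant libraries overlap in every stretch and cell type, while for all CpGs the 3 pregnant stem libraries lie below both virgin ones; the retired progenitor library is highest in alpha (64.3%) and gamma (47.5%).

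Tile by tile, no position in the clusters passed the threshold in any of 12 comparisons. Calling a tile required 10 points of difference or more and a p below 0.05 after adjustment over all 77064 tiles of that comparison. For pregnancy in stem cells 0 of 75 window tiles were called, where 157 of all tiles (0.204%) were. At that share 75 tiles would seldom hold a call, so the count of 0 says little about the window. Before adjustment 11 of 75 (14.7%) had a p under 0.05, close to the 14.5% of all tiles; limma, run on the same tiles, called 0 in the window and 0 over all tiles, with 5 (6.67%) and 8670 (11.3%) at an unadjusted p under 0.05. The unadjusted counts are read only against the share over all tiles, since p under 0.05 was too frequent in simulated libraries with no change.

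In the other cell types pregnancy gave 0 calls in the window and over all tiles (0% called). The unadjusted share was 1.33% of window tiles in progenitors (1 tile) and 5.33% in mature cells (4 tiles), against 4.08% and 5.39% over the genome. Stem minus progenitor had 0 calls in the window with 8 tiles (10.7%) at an unadjusted p under 0.05 (8.89% of all), and 0.0013% of all tiles were called. Stem minus mature had 0 calls with 9 such tiles (12%, and 10.4% of all), and progenitor minus mature 0 calls with 7 (9.33%, and 5.69% of all). Both had 0 calls over all tiles as well. For week 9 minus week 3 virgin mice the unadjusted count was 10 (13.3%, and 6.12% of all), for retired minus virgin 3 (4%, and 5.3% of all), and for the mean pregnancy effect of the 3 cell types 7 (9.33%, and 7.12% of all). Each of these had 0 calls in the window and over all tiles. Whether pregnancy acted differently in stem cells than in progenitors gave 0 window calls (0.0441% of all tiles) and 9 tiles at an unadjusted p under 0.05 (12%, and 11.4% of all). The same test of stem against mature cells gave 0 calls (0.153% of all) and 10 tiles (13.3%, and 12.1% of all). That of progenitor against mature cells gave 0 calls (0.0013% of all) and 5 tiles (6.67%, and 5.45% of all). With no or so few calls over the genome, the counts of 0 say little about the window. Each retired group holds 1 library, so the spread used in the retired tests comes from the other groups. In limma, deep and shallow libraries also had equal weight, unlike in the main fit. limma called 0 window tiles in each of these comparisons as well, with 0 to 6 at an unadjusted p under 0.05. For retired minus virgin it called 38 tiles over the genome, and its 6 window tiles (8%) compare with 16.4% of all at an unadjusted p under 0.05; in the others its genome count was 0.

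The size and direction of the pregnancy difference in stem cells can also be set beside the genome without a threshold on p. Among tiles of middle level, 38.1% of all tiles differed by at least 10 points between pregnant and virgin stem cells, compared with 7 of 47 (14.9%) in the window. The median difference of these tiles was -3 points over the genome and 1.68 points in the window, and without sign it was 7.19 and 4.72 points. Middle tiles were not matched for depth, with a median of 159 reads over the genome and 218 in the window. The libraries did not overlap in 19 window tiles (25.3%, and 26.1% of all tiles), of which 8 were lower in pregnancy (10.7%, and 18% of all) and 11 higher (14.7%, and 8.06% of all). In progenitors the libraries did not overlap in 10 tiles (13.3%, and 16.1% of all), with 7 lower in pregnancy (9.33%, and 8.24% of all) and 3 higher (4%, and 7.89% of all). In mature cells they did not overlap in 12 (16%, and 15.3% of all), with 8 lower (10.7%, and 8.72% of all) and 4 higher (5.33%, and 6.57% of all). No test was made of whether the window differed from the rest in these shares.

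The tile closest to the threshold was the last one of the window, chr18:38002001-38003000, which starts 3000 bases before its far end and holds 4 shared CpGs. Whether this tile lies inside the gamma cluster or past its end was not determined. In virgin stem cells the level of the tile was 23.1% at week 3 and 36% at week 9. In pregnant stem cells it was 9.82% at day 10 (27 of 275 reads, exact 95% binomial interval 6.57 to 14%), 9.42% at day 16 (13 of 138 reads, 5.11 to 15.6%) and 6.98% at day 19 (9 of 129 reads, 3.24 to 12.8%). In retired stem cells it was 26.2%. The 3 pregnant stem libraries were the lowest of the 18 and did not overlap with any other.

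Progenitors had levels from 34.4% to 53.8% at this tile (median 38%, n = 6), and mature cells from 32% to 49.2% (median 42.9%, n = 6). Pregnant and virgin libraries overlapped in both. In stem cells the mean was 29.6% ± 9.07 in the 2 virgin libraries and 8.74% ± 1.54 in the 3 pregnant ones (SD), a fall of 20.8 points with an adjusted p of 0.0723 in the quasi-binomial fit over all tiles. The same contrast was -2.68 points in progenitors and 4.9 points in mature cells. The test of the difference itself gave -18.1 points for stem minus progenitor (adjusted p = 0.223) and -25.7 points for stem minus mature (adjusted p = 0.0886). Over all stages stem cells were below progenitors by 22.2 points (adjusted p = 0.244) and below mature cells by 23.2 points (adjusted p = 0.21). None of these passed the threshold of 0.05. Within stages, stem minus progenitor was -11.3 and -9.12 points at week 3 and week 9, -27.6, -25.9 and -31.6 points in pregnancy, and -27.7 points in retired mice, and stem minus mature was -20.4 and 4 points, -26.6, -39.8 and -35.3 points, and -20.9 points. With stage as a block the adjusted p of the difference in the pregnancy effect was 0.4 against progenitors and 0.281 against mature cells.

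One library could decide this call. Without the week 3 virgin stem library the stem difference was -27.2 points with an adjusted p of 0.0467, and without the week 9 virgin stem library it was -14.4 points with an adjusted p of 0.47. Without either virgin mature library, which enters only through the shared spread, the adjusted p was 0.0331. limma gave an adjusted p of 0.0827, and over the 22 alternatives that gave a value for this tile the adjusted p lay between 0.0331 and 0.47. With a minimum of 10 reads the tile was not tested, since fewer than 3 of its CpGs reached that depth in all libraries.

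At 3 of the 4 shared CpGs of the tile, the pregnant stem libraries lay below the virgin stem, progenitor and mature ones. At 38002348 the pregnant stem libraries lay between 4.25 and 15.2%, the virgin stem libraries between 31.6 and 65.3%, and the 12 progenitor and mature libraries between 44 and 78.4%, with retired stem at 40.4%. At 38002086 the ranges were 9.09 to 15.4%, 26.9 to 88.9% and 28.3 to 100%, and retired stem, at 6.25%, was below the pregnant stem libraries. At 38002283 they were 5.26 to 14.9%, 18.8 to 21.9% and 22.1 to 54.2%, with retired stem at 22%. Virgin stem overlapped progenitor and mature libraries at the first and the second of these CpGs. At 38002108 all libraries were low, with 0 to 9.09% in pregnant stem, 0 to 11.1% in virgin stem, 6.25% in retired stem and 0 to 35.3% in the other cells. Of the CpGs that were not measured in all libraries, 38002274 was at 9.09 to 13.6% in pregnant stem and 34.8 to 67.9% in virgin stem cells. Levels at neighbouring CpGs come in part from the same reads.

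**Figure D5:**
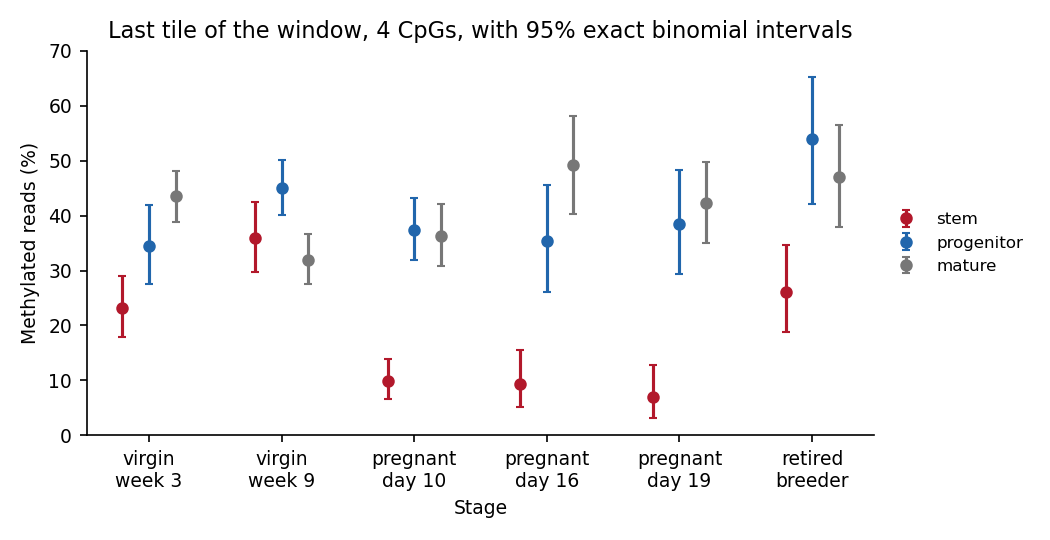
Methylated reads (%, vertical axis) at the last tile of the window by stage (horizontal axis) and cell type, 1 point per library with exact 95% binomial intervals. The pregnant stem libraries lie at 9.82%, 9.42% and 6.98%, below all other libraries, which range from 23.1% to 53.8%.

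Other tiles whose pregnant and virgin stem libraries did not overlap moved less, in either direction. The largest rise was in beta at chr18:37651001-37652000 (3 CpGs), with 63.9% and 65.7% in virgin and 87.1%, 69% and 79.8% in day 10, day 16 and day 19 pregnant stem cells. The rise was 13.8 points with an adjusted p of 0.184, the retired stem library stood at 68.3%, and progenitors lay below all stem libraries at 48.2 to 62.8%. The next rises were at chr18:37180001-37181000 in alpha, from 65.1% to 77.8% (adjusted p = 0.513), and at chr18:37892001-37893000 in gamma, from 27.8% to 38.8% (adjusted p = 0.258). In gamma chr18:37981001-37982000 went from 33.8% to 43.9% and chr18:37841001-37842000 from 36.2% to 43.9%, with adjusted p of 0.332 and 0.31. None of the 5 passed the threshold. Leaving out 1 library moved the rise at 37981001 to between 4.23 and 16 points, at 37892001 to between 6.18 and 15.8, and at 37180001 to between 7.33 and 17.8.

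The falls other than that of the last tile were smaller. In alpha, chr18:37270001-37271000 (3 CpGs) had 73.9% and 78% in virgin and 69.1%, 58.7% and 66% in pregnant stem cells, a difference of -11.4 points (adjusted p = 0.254). In gamma, chr18:37821001-37822000 went from 34.5% to 26.6% (adjusted p = 0.436), a difference of -12.4 to -3.54 points with 1 library left out. In beta, chr18:37455001-37456000 went from 88.3% to 82.9% (adjusted p = 0.327), and chr18:37425001-37426000, the beta tile with the most CpGs at 9, from 81.8% to 76.7% (adjusted p = 0.149). The last of these had 80% and 83.7% in virgin and 77.7%, 78.8% and 73.7% in pregnant stem cells. Progenitor and mature libraries covered the range from 68.6 to 81.8% there and overlapped the pregnant stem values.

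Beside the last tile, the 2 tiles with the widest range over libraries held 3 CpGs each. At chr18:37849001-37850000 in gamma (3 CpGs) levels ran from 20.7% in day 16 stem (12 of 58 reads, exact 95% interval 11.2 to 33.4%) to 79.2% in retired progenitor (19 of 24 reads, 57.9 to 92.9%). Stem cells had a median of 31.7%, progenitors of 50.8% and mature cells of 41.7% there. At chr18:37646001-37647000 in beta (3 CpGs) levels ran from 46.8% in week 3 progenitor to 91.3% in day 16 progenitor (21 of 23 reads, 72 to 98.9%). The virgin stem libraries were 53.3% and 79.2% at that tile and enclosed the 3 pregnant ones.

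Beyond the clusters, promoters were looked up for genes known to act on them and for protocadherins outside them. Of 15 regulators, 10 had a promoter that could be placed by the spacing of its CpGs and had a level, and in 9 of these at least 1 promoter had a mean under 5%. Ctcf, the insulator protein, was at 0.0379%, Dnmt3b, a methyltransferase that acts at the clusters, at 0.105%, and Smchd1, a chromatin protein that helps silence them, at 1.05%, with 2.11% as its highest library. Smc1a, an X-linked cohesin subunit, was the exception at 25.6%, between 9.52 and 37.5% over libraries. Of 12 non-clustered protocadherins 2 had a level: Pcdh9 at 0.0624% and Pcdh18 at 0.251%. The levels of regulators and protocadherins came from promoters with at least 10 listed CpGs, which the looser placing rule required. Each level used only those CpGs measured in all libraries, which were 3 for Smc1a and 4 for Pcdh9. Of all tiles with at least 10 shared CpGs, 69.6% were under 20%. Low levels are thus common at CpG-dense sites and are not read as a trait of these genes. The promoters of the 58 clustered genes were not placed, and their levels are not compared with these.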

How the data were processed

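Each of the 18 deposited files gives 1 CpG per line with a pair of read counts, those methylated and those in all, on build mm9 per the submitters' processing notes; these counts were the values used. Libraries were reduced representation bisulfite libraries of MspI-digested DNA, per the labels' protocols. What aligned the reads and called methylation, and how duplicates or reads with several matches were treated, is not given in the sources used here. Nothing says that libraries were pooled.

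A CpG was used if each of the 18 libraries covered it with 5 or more reads. Both read numbers were added up over tiles of 1000 bp that held 3 or more such CpGs. Levels of tiles are methylated over total reads, and levels of stretches are means over CpGs. A quasi-binomial logistic model was fitted to every tile of the genome on all 18 libraries, using a dispersion shrunken by the squeezeVar method of limma and never set below 1. Each of 12 comparisons was tested by an F test, and its p-values were adjusted over all tiles by the Benjamini-Hochberg method. Pregnancy and retirement were fitted on 9 groups of cell type by state, cell types and virgin stages on cell type plus stage. The fit was tested on simulated counts before use. Means over the window have no test. The members, lists and tests were chosen with earlier results of these data known.

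Named tiles were those called, the 5 largest rises and falls among tiles with non-overlapping pregnant and virgin stem libraries, the 3 with the widest range and the tile with the most CpGs per stretch. The comparison of touching tiles and its minimum of 30 points were chosen after seeing the data. Levels of 20 to 80% are called middle levels. The stretches were divided at 300 kb and 650 kb from the start of the window; the cluster lengths in the RefSeq table (GRCm38.p6) place both borders between clusters. Promoters from RefSeq (300 bases, GRCm38.p6) were placed on mm9 by the spacing of their CpGs. The planned rule placed 2 genes. A looser one added after seeing the data (at least 10 CpGs and 4 more than the next best place) placed 14. Places were kept only where chromosome and strand matched RefSeq. For an Esr1 promoter the planned rule gave a single place that did not match, and it was left out. No sequence of a clustered gene was at hand, so the planned placing of their promoters was not possible and is not analysed here.

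Alternatives were a minimum of 10 reads, 500 bp tiles, any CpG with 5 reads, removal of the deepest 1% of CpGs, a difference of 20 points, limma on log2((methylated + 1)/(unmethylated + 1)), cell type fits without stage, and leaving out each library; a fit of the difference in pregnancy effect with stage as a block was added after seeing the data. Software was R 4.3.3 (statmod 1.5.0, limma 3.58.1) and Python 3.11.15 (matplotlib 3.10.9, pandas 2.3.3, scipy 1.17.1, numpy 2.4.6).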

Additional observations from a re-analysis of the deposited data

How the results depend on the processing

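Of 704 alternative values for 38 results, 683 kept their direction and their side of the threshold, or moved by less than the spread between libraries. For window tiles called, 290 of 294 alternatives gave 0. Many of these also called 0 tiles over the whole genome, so that 0 in the window was fixed in advance. They count within the 683 and say little about stability. Leaving out each library in turn gave 0 to 1 called tile for pregnancy in stem cells and 0 to 1 for its difference between stem and mature cells. The called tile was the last of the window each time. It was called for stem cells without virgin stem replicate 1 (week 3) or either virgin mature library, and for the difference without virgin mature replicate 1 (week 3, adjusted p = 0.0252). Differences of mean level between pregnant and virgin libraries kept within 1 SD in 95 of 108 alternatives, and 13 moved by more: with pooled reads -1.08 points in the window (mature), and -2.97, 0.769 and -1.47 points in alpha (stem, progenitor, mature); with any CpG of 5 reads 0.645 and 1.4 points in alpha (stem, progenitor), and -0.734 and -1.2 points in gamma (stem, mature); and with 10 reads -0.287 points in alpha (mature). Leaving out each library, beta in mature cells ranged from -3.28 to 0.15 points and gamma in progenitors from -0.909 to 1.42 points; in both the extremes came from leaving out 1 or the other virgin library. At chr18:37646001-37647000 the stem difference ranged from -16.4 points without virgin stem replicate 1 (week 3) to 9.5 points without replicate 2 (week 9), where its direction turned. The cause of these moves was not tested. The labels give no replicate numbers, but the 3 cell types share stages, which served as the block in comparisons of cell types. Without this replicate block 0 window tiles were called, and 12, 45 and 0 over all tiles for stem minus progenitor, stem minus mature and progenitor minus mature; the lowest adjusted p in the window was then 0.00375, at chr18:37965001-37966000 with a difference of 0.209 points. With stage as a replicate block in the difference of the pregnancy effect, 0 window tiles and 0 tiles over the genome were called, so its 0 says nothing of the window. Within a cell type each stage has 1 library, so pregnancy itself could not be paired. With 10 reads the last tile was not tested. A level at a tile of 24 reads has an exact interval of 57.9 to 92.9%, so single shallow libraries limit what can be seen.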
